A study of Saccharomyces cerevisiae with 21 samples.

Results

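The genes described here are 31 proteasome subunit genes of the budding yeast Saccharomyces cerevisiae together with RPN4, the gene for a transcription factor that activates them, 32 of the 5449 genes with a value on the arrays. They were chosen by gene name as subunits of the 26S proteasome, and 1 probe set measured each of them. Of the 31 subunits, 13 form the 20S core particle (7 in the alpha rings, 6 in the beta rings) and 18 the 19S regulatory particle (6 ATPases, 4 other base subunits, 8 lid subunits). PRE7, a beta subunit gene, and SEM1 are further subunit genes that are not among the 31. They were counted with the proteasome-associated genes.

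The proteasome degrades proteins that carry ubiquitin chains. The 19S particle recognises the chain, removes it and unfolds the substrate with its ring of ATPases, and the 20S core cuts the unfolded chain inside a chamber whose active sites are on beta subunits. In yeast, Rpn4 is a short-lived zinc-finger protein that binds a shared promoter element upstream of most subunit genes and is itself degraded by the proteasome, so the genes of the complex are known for being expressed together. Mediator is the complex that links gene-specific activators to RNA polymerase II; Gal11 (also called Med15) and Med3 (the product of PGD1) belong to its tail, the module that activators contact.

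Genome-wide expression arrays measured total RNA from cultures in mid-log growth at 30 °C, with 3 arrays in each of 7 groups. The wild type was BY4741, of genotype MATa his3Δ1 leu2Δ0 met15Δ0 ura3Δ0. The strain called gal11∆ med3∆ was MATα, carried med3Δ::kanMX4 and med15Δ::kanMX4 and had the his3Δ1, leu2Δ0, met15Δ0 and ura3Δ0 markers of the wild type. The strain called gal11-myc med3∆ was MATa his3Δ1 leu2Δ0 ura3Δ0, with srb4Δ::kanMX covered by a centromeric LEU2 plasmid that carries SRB4, a GAL11-13MYC::HIS3MX allele and med3Δ::URA3, so it kept a tagged Gal11 and differed from the wild type in more than med3. These 3 strains were grown in YPD, a rich medium, and in CSM, a synthetic medium. BY4742, labelled MATa his3Δ1 leu2Δ0 lys2Δ0 ura3Δ0, was grown in YPD alone. By their labels, the mutants thus differed from the wild type in mating type or in auxotrophic markers as well as in Mediator. The labels do not say whether the 3 arrays of a group came from separate cultures. The p-values therefore measure the spread between arrays of a group, pooled over the 7 groups, which may be technical. In RNA from a whole culture, a change in all cells cannot be told apart from a change in some of them.

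The array values are log2 expression from which each probe set's median over a set of arrays had been subtracted: over the 9 wild type and mutant arrays in YPD, over the 9 in CSM, and over the 3 BY4742 arrays alone. A value of 0.00 is therefore the middle array of its set, levels of different genes and of the 2 media cannot be set against each other, and BY4742 can be compared only through the authors' own table. Differences between groups within a medium are preserved. A gene was called higher or lower when its adjusted p, from a linear model with moderated variances over all 5449 genes, was under 0.05. On the log2 scale 1 unit is 2-fold. Each gene had 1 variance for all 7 groups, though their spreads differed. The median SD of the subunits was 0.095, 0.089 and 0.084 in the wild type, gal11∆ med3∆ and gal11-myc med3∆ in YPD. It was 0.025, 0.061 and 0.019 in CSM, and 0.147 in BY4742. The SEs in CSM thus also carry the spread of the YPD and BY4742 arrays, which bears on the counts of calls in the 2 media.

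The targeted genes matched the labels. GAL11 had a log2 difference from the wild type of -6.43 ± 0.15 (SE, 3 arrays a group) in gal11∆ med3∆ in YPD, and PGD1 differed by -4.51 ± 0.14 there and by -4.30 ± 0.14 in gal11-myc med3∆. Mean GAL11 values were also lower in gal11-myc med3∆ than in the wild type, at 0.11 against 0.70 in YPD and -0.03 against 0.53 in CSM. Of the 7 a-specific genes tested, 7 were lower in gal11∆ med3∆ in each medium, and all 5 alpha-specific genes were higher. LYS2 differed by -6.50 in gal11∆ med3∆ in YPD although the labelled genotype names no lys2 allele. By the authors' deposited table, MET17 (also called MET15) had a fold of 1.10 in gal11-myc med3∆ against the wild type in YPD. The labelled genotype of that strain names no met15 allele, and in BY4742, whose label names none either, the signed fold was 440.

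Whole chromosomes stood apart in some groups, which bears on where the subunit genes lie. In gal11∆ med3∆ in YPD the 259 genes of chromosome V had a median log2 difference from the wild type of 0.79, with 83.8% of them higher, whereas the medians of 14 other chromosomes lay between -0.02 and 0.12. The shift was present on each array: the median value of chromosome V was 0.65, 0.62 and 0.65 on the gal11∆ med3∆ arrays and -0.09, -0.07 and -0.10 on the wild type arrays. In CSM the same strain had chromosome V medians of 0.15, 0.04 and 0.00. In CSM the 387 genes of chromosome II were lower in both mutants than in the wild type, with medians of -0.72 and -0.74, against 0.03 and 0.02 in YPD. Of the listed subunit genes, PUP3, PRE1 and RPN3 lie on chromosome V and none lies on chromosome II. PRE7, a subunit gene that is not among those listed, lies on chromosome II. The counts of called subunits in the comparisons with the wild type are therefore also given for the 28 listed subunits outside both. The cause of the chromosome shifts was not tested.

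**Figure D1:**
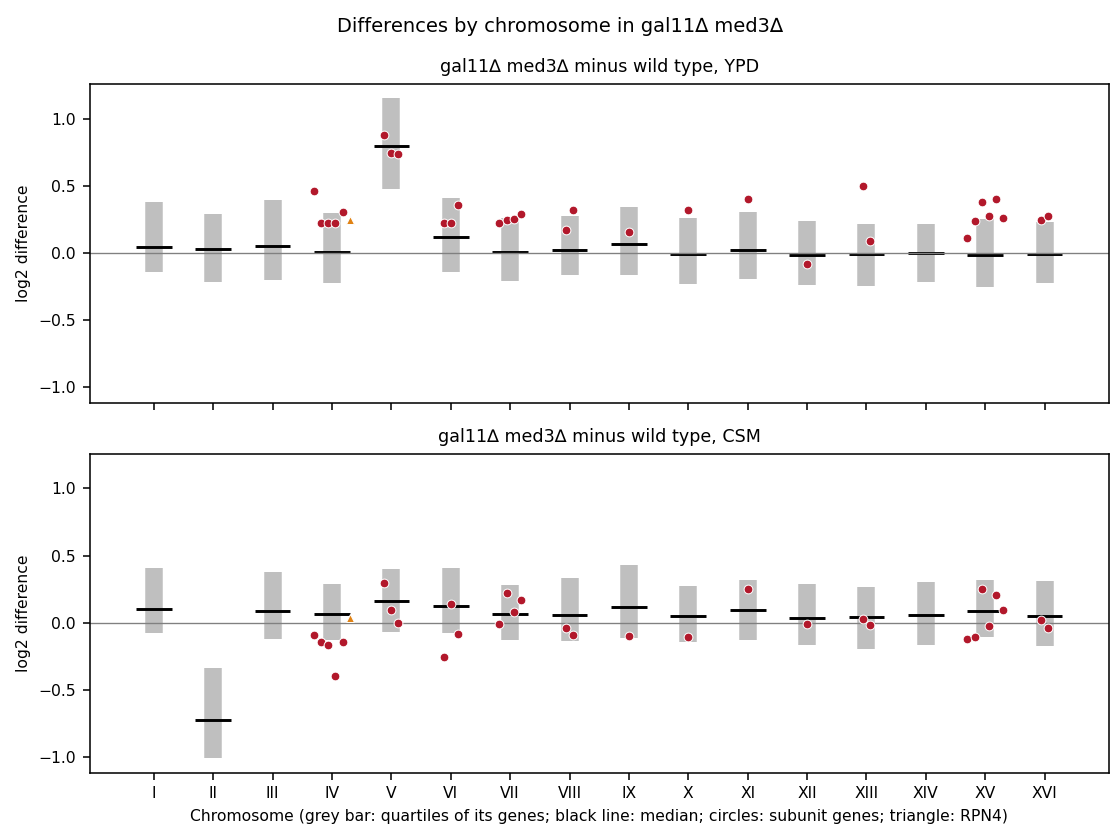
Log2 difference between gal11∆ med3∆ and the wild type by chromosome (x axis, I to XVI), in YPD and in CSM. Grey bars span the lower to the upper quartile of each chromosome's genes with a line at the median, circles are proteasome subunits and the triangle is RPN4; chromosome V stands at a median of 0.79 in YPD and chromosome II at -0.72 in CSM.

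In YPD, RNA of most proteasome subunits was higher in the strain that lacked both Gal11 and Med3. Of 31 subunits, 23 were higher in gal11∆ med3∆ than in the wild type and 0 were lower, where 27.5% of all genes were higher and 19.4% were lower. The median subunit difference was 0.26 on the log2 scale, against 0.03 over all genes, and 30 of 31 differences were positive. The differences were small in size, since none (0) of the 31 reached 2-fold, against 7.47% of all genes that passed and did so in either direction. For 22 subunits every mutant array lay above every wild type array, which held for 29.3% of all genes. Outside chromosome V, 20 of 28 subunits were higher and 0 lower, with a median of 0.25 and a range from -0.08 to 0.50; of the 4803 genes outside chromosomes V and II, 24.6% were higher and their median was 0.00.

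**Figure D2:**
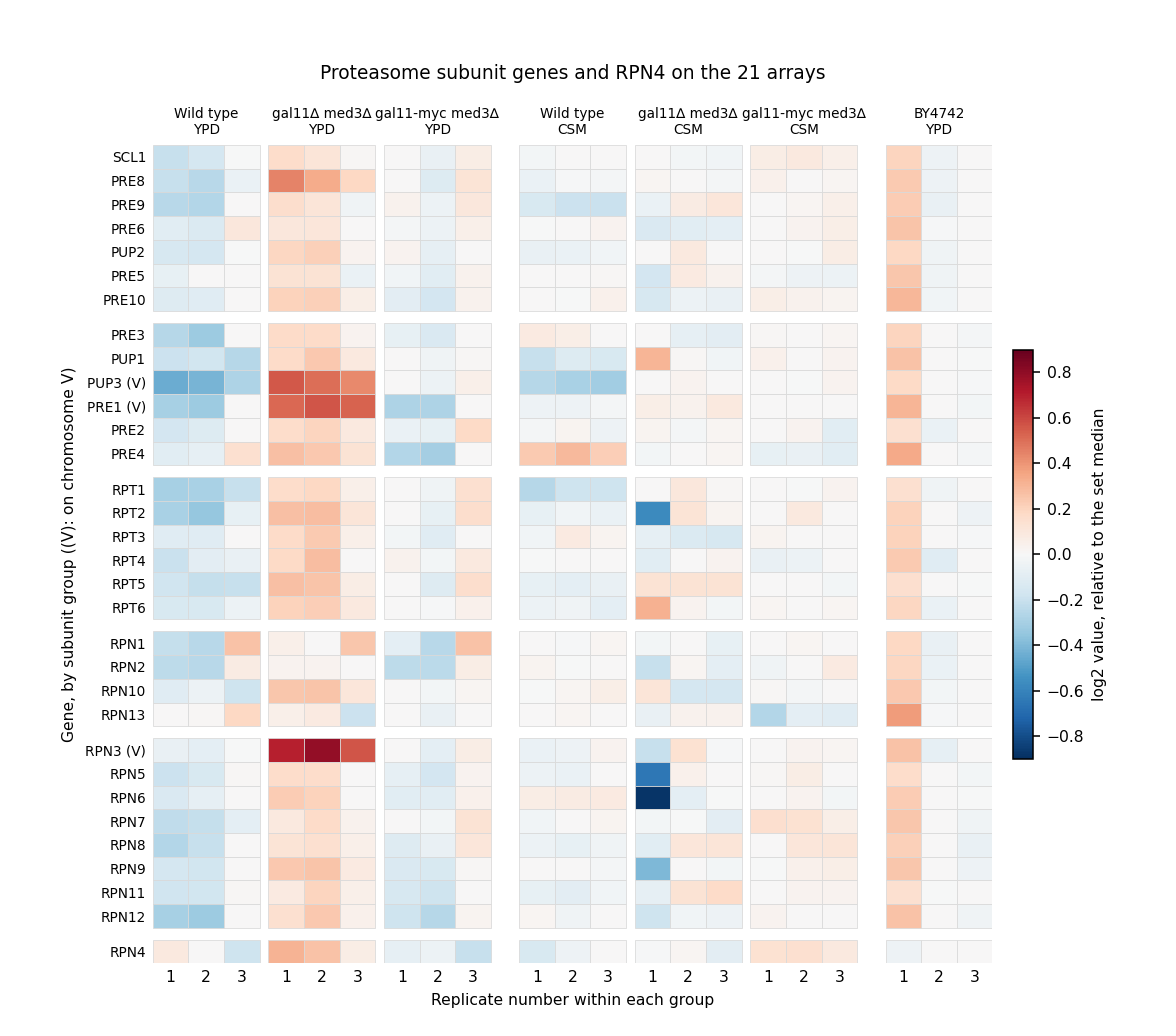
Heat map of the log2 values of the 32 genes (rows, grouped by their place in the complex) on the 21 arrays (columns, grouped by strain and medium), each centred on its own set's median. Most subunit rows are below 0 on the first and second wild type YPD arrays and above 0 on the first and second gal11∆ med3∆ YPD arrays, and the first BY4742 array is above 0 for all 31 subunits.

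Among the listed beta subunits of the core, 5 of 6 were higher in gal11∆ med3∆ in YPD. PRE7, a beta subunit gene that is not among the 31, differed by 0.15 and did not pass. PUP3, which encodes a beta subunit without an active site, had values of -0.45, -0.42 and -0.28 in the wild type and 0.56, 0.50 and 0.43 in the mutant. The groups were far apart, at a difference of 0.88 ± 0.06 (1.84-fold, adjusted p = 5.43e-09), the largest among the 31. PRE1, another non-catalytic beta subunit, read -0.30, -0.33 and 0.00 in the wild type and 0.52, 0.56 and 0.53 in the mutant, a difference of 0.75 ± 0.09 (1.68-fold, adjusted p = 7.67e-06). Both genes are on chromosome V, and when each array was centred on the median of each chromosome's genes PUP3 differed by 0.15 (adjusted p = 0.0808) and PRE1 by 0.02 (adjusted p = 0.908), so their calls were no longer made. The catalytic subunits PUP1 (trypsin-like), PRE3 (caspase-like) and PRE2 (chymotrypsin-like) lie elsewhere, and rose by 0.38 ± 0.08 (adjusted p = 0.00153), 0.32 ± 0.08 (adjusted p = 0.00309) and 0.25 ± 0.07 (adjusted p = 0.0104). PRE4, whose product is the remaining beta subunit of the list, differed by 0.23 ± 0.09 and did not pass (adjusted p = 0.0599).

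Of the 7 alpha subunits, which form the outer rings and the gate of the core, 5 were higher. PRE8 read -0.21, -0.25 and -0.06 in the wild type and 0.44, 0.33 and 0.19 in gal11∆ med3∆. Every mutant array was above every wild type array, and the difference was 0.50 ± 0.08 (1.41-fold, adjusted p = 1.00e-04), the largest of any subunit outside chromosome V. PUP2 differed by 0.25, PRE9, the alpha subunit that yeast can live without, by 0.25, PRE10 by 0.24 and SCL1 by 0.22. PRE6 (0.11 ± 0.07, adjusted p = 0.209) and PRE5 (0.09 ± 0.08, adjusted p = 0.365) did not pass.

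All 6 ATPases of the 19S base, which unfold the substrate and open the core, were higher. RPT1 read -0.30, -0.29 and -0.21 in the wild type and 0.17, 0.19 and 0.05 in the mutant, groups that did not overlap, with a difference of 0.40 ± 0.06 (1.32-fold, adjusted p = 6.46e-05). RPT2 read -0.29, -0.35 and -0.07 against 0.27, 0.28 and 0.12, a difference of 0.46 ± 0.13 (adjusted p = 0.00994), with the third array of each strain nearer to 0 than the other two. RPT5 differed by 0.40, RPT6 by 0.29, RPT4 by 0.27 and RPT3 by 0.23.

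Of the 4 base subunits that are not ATPases, 1 was higher. It was RPN10, a ubiquitin receptor, at 0.32 ± 0.08 (adjusted p = 0.00327). RPN13, another ubiquitin receptor, was the single subunit with a negative difference, -0.08 ± 0.10 (adjusted p = 0.491). RPN1 and RPN2, the large subunits that serve as scaffolds, differed by 0.17 ± 0.13 (adjusted p = 0.292) and 0.16 ± 0.10 (adjusted p = 0.194). RPN1 spread widely in the wild type, with values of -0.21, -0.25 and 0.26.

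In the lid, the part that holds the deubiquitinase, 6 of the 8 listed subunits were higher. RPN3 on chromosome V read -0.06, -0.08 and 0.00 in the wild type and 0.70, 0.79 and 0.57 in gal11∆ med3∆, a difference of 0.74 ± 0.09 (1.67-fold, adjusted p = 5.42e-06) that was 0.01 (adjusted p = 0.963) with each chromosome centred. RPN12 differed by 0.35, RPN9 by 0.30, RPN7 by 0.28, RPN8 by 0.26 and RPN11, the deubiquitinase itself, by 0.23. RPN5 (0.22 ± 0.13, adjusted p = 0.178) and RPN6 (0.22 ± 0.15, adjusted p = 0.259) did not pass.

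With chromosomes centred, 19 of 31 subunits stayed higher and 0 were lower, against 25.1% of all genes higher; PUP3, PRE1, RPN3 and RPN11 (0.16, adjusted p = 0.115) were the 4 that lost the call. The count of 23 fell to 14 when the fit held only the arrays of these 2 groups. It also moved with single arrays, from 16 when the first wild type array was left out to 27 when the third was. For fits with arrays left out, weighted or limited to 2 groups, the share of all genes called is not given, here or below. Such counts alone therefore show nothing particular to the subunits. Of the 23 genes, 16 were called in every fit that left out 1 array, and SCL1, PRE9, PRE10, RPT4, RPN8, RPN9 and RPN11 were lost in at least 1, with adjusted p up to 0.101. The third arrays held the smallest contrast: the median subunit difference between same-numbered arrays was 0.37, 0.37 and 0.05 for numbers 1, 2 and 3, with 31, 31 and 22 of 31 subunits positive. On wild type YPD array 3, 28 of 31 subunits were at their group's highest value, against 40.0% of all genes. On gal11∆ med3∆ YPD array 3, 29 of 31 were at their group's lowest, against 52.0% of all genes.

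**Figure D3:**
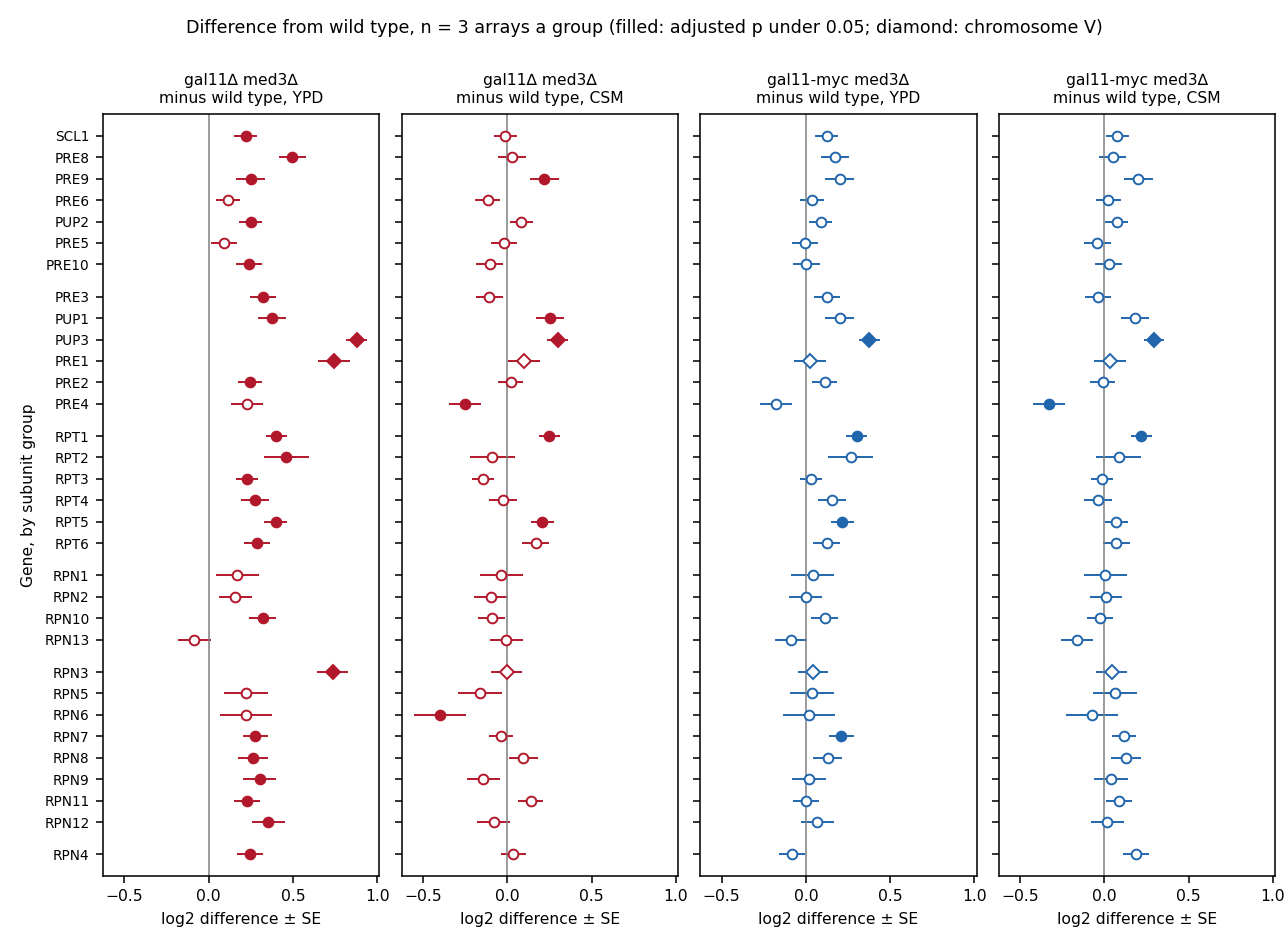
Log2 difference from the wild type ± SE for each of the 32 genes (rows), in 4 panels for the 2 mutants in YPD and CSM, 3 arrays a group. Filled points passed an adjusted p of 0.05 and diamonds mark genes on chromosome V; 23 subunits are filled on the right of 0 in gal11∆ med3∆ in YPD and 5, 4 and 2 in the other panels.

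In CSM the same comparison gave fewer calls, in both directions. Of 31 subunits, 5 were higher in gal11∆ med3∆ and 2 lower, with 27.1% of all genes higher and 18.4% lower, and 12 of the 31 differences were positive, with a median of -0.02 against 0.04 over all genes. Outside chromosomes V and II, 4 of 28 were higher and 2 lower, against 28.2% and 13.9% of the genes there. For 8 subunits every mutant array lay above every wild type array and for 5 below, where these counts held for 34.2% and 24% of all genes.

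The higher subunits in CSM were 3 core and 2 ATPase genes. PUP3 read -0.25, -0.29 and -0.31 in the wild type and 0.00, 0.03 and 0.00 in gal11∆ med3∆, a difference of 0.30 ± 0.06 (1.23-fold, adjusted p = 0.000644). RPT1 read -0.25, -0.19 and -0.18 against 0.01, 0.11 and 0.01, a difference of 0.25 ± 0.06 (adjusted p = 0.00362). PUP1 (0.25 ± 0.08, adjusted p = 0.0202), PRE9 (0.22 ± 0.08, adjusted p = 0.0432) and RPT5 (0.21 ± 0.07, adjusted p = 0.0179) completed the set. With chromosomes centred 2 were higher, PUP3 (0.18, adjusted p = 0.0412) and RPT1, and 3 were lower, against 24.8% and 18.3% of all genes under the same centring.

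The subunits lower in CSM were PRE4 and RPN6. PRE4 read 0.23, 0.29 and 0.22 in the wild type and -0.02, 0.00 and 0.02 in gal11∆ med3∆, tight groups on either side of a gap, with a difference of -0.25 ± 0.09 (adjusted p = 0.0388). Its call was lost in each of the 6 fits that left out 1 array, with differences from -0.26 to -0.23 and adjusted p up to 0.110. The SE of PRE4 also carries the spread of the YPD and BY4742 arrays, on which PRE4 varied more than in CSM. The lost calls therefore do not show that the fall itself was unsteady. In the authors' deposited table PRE4 passed for gal11∆ med3∆ in CSM, with a signed fold of -1.19. RPN6, a lid subunit that touches the core, read 0.07, 0.07 and 0.08 in the wild type and -0.88, -0.08 and 0.00 in the mutant, a difference of -0.40 ± 0.15 (adjusted p = 0.0451). The first mutant array alone held most of that gap.

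That first gal11∆ med3∆ CSM array stood apart for several subunits, with RPN5 at -0.65, RPT2 at -0.58 and RPN9 at -0.41 while PUP1 was at 0.31 and RPT6 at 0.32. Without it, RPN6 differed by -0.12 (adjusted p = 0.240), PUP1 by 0.15 (adjusted p = 0.103) and PRE4 by -0.24 (adjusted p = 0.0746), none past the threshold, while RPN10 (-0.18, adjusted p = 0.0411) and RPN11 (0.22, adjusted p = 0.0196) passed it. Over the fits that left out 1 array the count of higher subunits ran from 3, without the first or the second wild type CSM array, to 5, and the count of lower ones from 0, without any 1 wild type CSM array, to 1. PUP3 and RPT1 were called in all 6 of them. PRE9 lost its call in 5 of these fits and RPT5 in 1, without the second wild type array (adjusted p = 0.0514).

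The other subunits in CSM showed no call in either direction. The ATPases RPT2, RPT3, RPT4 and RPT6 differed by -0.09, -0.14, -0.03 and 0.17. The alpha subunits SCL1, PRE8, PRE6, PUP2, PRE5 and PRE10 lay between -0.12 and 0.08, and the beta subunits PRE3, PRE1 and PRE2 differed by -0.11, 0.10 and 0.02. All 4 non-ATPase base subunits were slightly negative, from -0.10 to -0.01, and of the lid subunits apart from RPN6 the values ran from -0.16 for RPN5 to 0.14 for RPN11.

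Whether the effect of the double deletion differed between the media was tested directly as a difference of differences. For 14 of 31 subunits the difference from the wild type was lower in CSM than in YPD and for 0 it was higher, where 16% of all genes were lower and 15.1% higher. The median was -0.30 against 0.03 over all genes, and 30 of 31 values were negative. Outside chromosome V, 11 of 28 were lower, with a median of -0.24, against 8.85% of the genes outside chromosomes V and II.

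RPN3 (-0.74 ± 0.13, adjusted p = 0.000333), PRE1 (-0.65 ± 0.13, adjusted p = 0.00151) and PUP3 (-0.58 ± 0.09, adjusted p = 7.66e-05) were among these 14, and the median of all chromosome V genes was -0.65. RPN6 (-0.62 ± 0.22, adjusted p = 0.0409) and RPT2 (-0.55 ± 0.19, adjusted p = 0.0373) followed, both with the outlying first CSM array in their mean. Without it RPN6 stood at -0.34 and RPT2 at -0.33, and both were still called. PRE4 (-0.48 ± 0.13, adjusted p = 0.0120), PRE8 (-0.47 ± 0.11, adjusted p = 0.00513), PRE3 (-0.43 ± 0.11, adjusted p = 0.00754), RPN10 (-0.41 ± 0.11, adjusted p = 0.00970) and RPT3 (-0.37 ± 0.09, adjusted p = 0.00583) lie outside chromosome V. The remaining 4 were RPN9, RPN12, PRE10 and RPN7, between -0.44 and -0.31.

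With each chromosome centred the count was again 14 of 31, against 11.6% of all genes, but not of identical genes: PUP3, PRE1 and RPN3 dropped out, PUP3 at 0.03, and SCL1, PRE6 and RPT4 entered. The calls of 8 of the original 14 held in each of 12 fits that left out 1 array. PRE10, RPT2, RPN6, RPN7, RPN9 and RPN12 lost theirs in at least 3, with adjusted p up to 0.0875. The count fell to 8 without the first wild type YPD array, without the second, or without the second gal11∆ med3∆ YPD array.

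**Figure D4:**
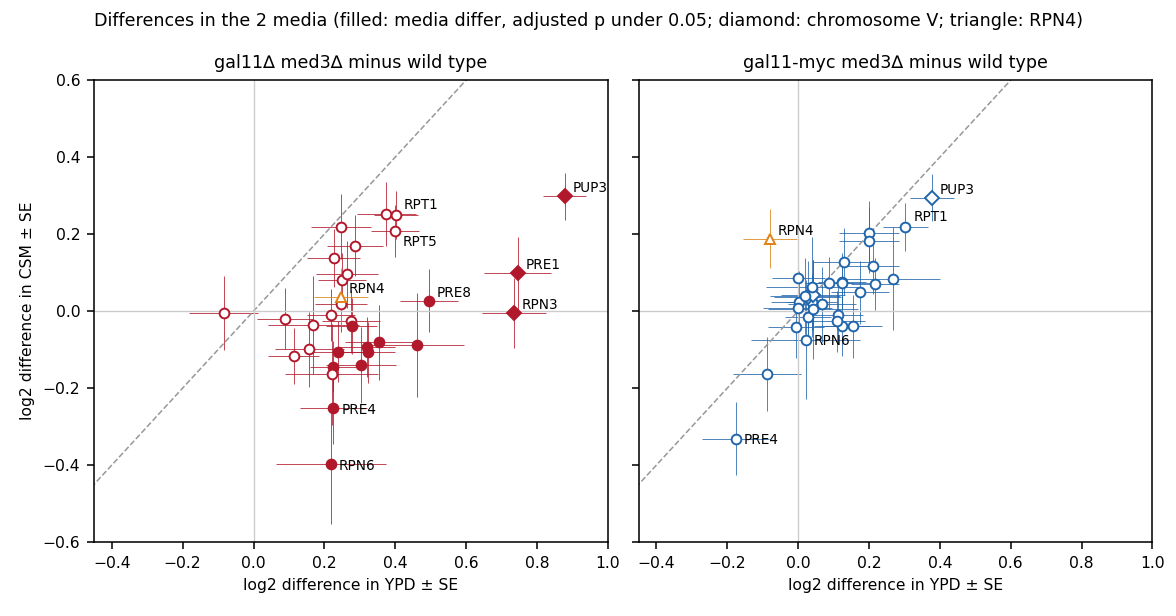
Each gene's log2 difference from the wild type in YPD (x axis) and in CSM (y axis), ± SE, for gal11∆ med3∆ and for gal11-myc med3∆; filled points have effects that differ between the media at an adjusted p under 0.05, diamonds lie on chromosome V, the triangle is RPN4 and the dashed line marks equal effects. In gal11∆ med3∆ 14 subunits are filled and lie below the line, and in gal11-myc med3∆ none is.

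Across the 31 subunits, the gal11∆ med3∆ differences in the 2 media had a Pearson correlation of 0.39 and a Spearman correlation of 0.47, and 0.26 and 0.36 over the 28 outside chromosome V. For gal11-myc med3∆ they were 0.81 and 0.66. Over all genes the Pearson values were 0.64 and 0.66. These describe genes measured on the same arrays, which are not independent.

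The strain that lacked Med3 but kept a tagged Gal11 showed fewer subunit calls in YPD. In gal11-myc med3∆, 4 of 31 subunits were higher and 0 lower, where 21.2% of all genes were higher and 12.1% lower. The median difference was 0.09 against 0.03 over all genes, and 27 of 31 were positive. Outside chromosomes V and II, 3 of 28 were higher and 0 lower, against 21.2% and 12.03% of the genes there. These differences use the same wild type arrays as those of gal11∆ med3∆.

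PUP3 read 0.00, -0.06 and 0.05 in gal11-myc med3∆ in YPD, above each of the 3 wild type arrays, and differed by 0.38 ± 0.06 (adjusted p = 0.000144). RPT1 read 0.00, -0.04 and 0.15, also above all wild type arrays, and differed by 0.30 ± 0.06 (adjusted p = 0.00134). RPT5 (0.22 ± 0.07, adjusted p = 0.0203) and RPN7 (0.21 ± 0.07, adjusted p = 0.0332) also passed. Both were lost in fits that left out 1 array, RPT5 without the second wild type or the third mutant array and RPN7 in 4 of 6 fits, and RPN7 passed no longer with the array number as a block (adjusted p = 0.0521). Without the third wild type array the count rose to 8, and without the third mutant array it fell to 2. PRE4 was the most negative subunit, at -0.18 ± 0.09 (adjusted p = 0.168), and fell past the threshold without the third mutant array (-0.27) and with each chromosome centred (-0.25, adjusted p = 0.0486). PUP3, on chromosome V, kept its call with chromosomes centred, at 0.37 (adjusted p = 0.000471), and chromosome V had a median of 0.04 in this comparison.

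In YPD the subunits of gal11-myc med3∆ that did not pass included the 7 alpha subunits, from -0.01 for PRE5 to 0.20 for PRE9. Among the beta subunits PUP1 differed by 0.20, PRE3 by 0.12, PRE2 by 0.11 and PRE1 by 0.03. The ATPases RPT2, RPT3, RPT4 and RPT6 differed by 0.27, 0.03, 0.15 and 0.13, the base subunits by -0.09 to 0.11, and the lid subunits other than RPN7 by 0.00 to 0.13.

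In CSM, 2 of 31 subunits were higher in gal11-myc med3∆ and 1 lower, with 22.4% of all genes higher and 14.2% lower; the median was 0.04 against 0.06 over all genes. Outside chromosomes V and II, 1 of 28 was higher and 1 lower, against 23.9% and 8.81% of the genes there. PUP3 read 0.00, -0.01 and 0.03, clear of the wild type values given above, and differed by 0.29 ± 0.06 (adjusted p = 0.000952). RPT1 read 0.00, 0.00 and 0.03 and differed by 0.22 ± 0.06 (adjusted p = 0.0114), a call that was lost without the first wild type array (adjusted p = 0.0519). PRE4 read -0.07, -0.07 and -0.10, below all 3 wild type arrays, and differed by -0.33 ± 0.09 (adjusted p = 0.0107). The arrays of these 2 groups were tightly spread, and 14 subunits lay wholly above the wild type and 4 wholly below, against 43.1% and 27.6% of all genes.

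The 28 subunits of gal11-myc med3∆ that did not pass in CSM included PRE9 at 0.20 ± 0.08 (adjusted p = 0.0718), PUP1 at 0.18 ± 0.08 (adjusted p = 0.0996) and the ubiquitin receptor RPN13 at -0.16 ± 0.10 (adjusted p = 0.208). RPN7 differed by 0.12 and RPN8, the partner of the deubiquitinase RPN11 in the lid, by 0.13. PRE5, PRE3, PRE2, RPT3, RPT4, RPN10 and RPN6 had differences between -0.07 and -0.01.

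For gal11-myc med3∆, 0 of 31 subunits passed the test of the difference between media in either direction, where 5.51% of all genes were higher and 8.17% lower. By the same limma model 0 had an unadjusted p under 0.05, and the values ran from -0.19 to 0.09. With array weights 2 subunits were called lower.

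Set directly against each other in YPD, the strains differed for 5 subunits, all lower in gal11-myc med3∆ than in gal11∆ med3∆, with 8.96% of all genes lower and 6.15% higher. All 31 differences were negative, with a median of -0.18. PRE1 (-0.72 ± 0.09, adjusted p = 3.37e-05), RPN3 (-0.69 ± 0.09, adjusted p = 3.05e-05) and PUP3 (-0.50 ± 0.06, adjusted p = 1.36e-05) lie on chromosome V, whose genes had a median of -0.80 here. PRE4 (-0.40 ± 0.09, adjusted p = 0.00733) and PRE8 (-0.32 ± 0.08, adjusted p = 0.0118) do not. Outside chromosomes V and II, 2 of 28 subunits were thus lower and 0 higher, against 5.23% and 6.48% of the genes there. With chromosomes centred, PRE4 and PRE8 were the 2 that stayed lower, against 5.4% of all genes. PUP3 then turned to 0.22 (adjusted p = 0.0448).

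The PRE8 call was lost without the first gal11∆ med3∆ array or the second gal11-myc med3∆ array (adjusted p up to 0.0769). The count of 5 rose to 10 without the third gal11∆ med3∆ array and to 12 without the third gal11-myc med3∆ array. On that gal11-myc med3∆ array 29 of 31 subunits were at their group's highest, against 41.1% of all genes. Between same-numbered arrays the median was -0.24, -0.30 and 0.01. In CSM 0 of 31 subunits differed between the strains by limma, with 1 at an unadjusted p under 0.05, where 7.65% of all genes were higher and 10.3% lower.

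**Figure D5:**
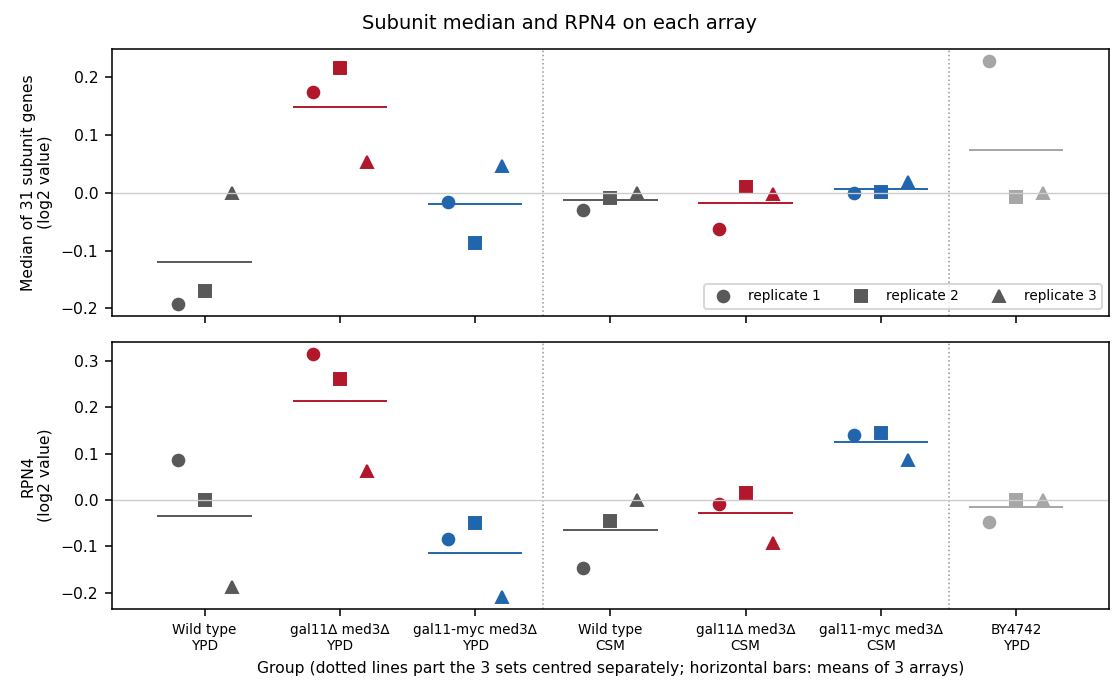
Median log2 value of the 31 subunits and value of RPN4 on each of the 21 arrays, by group. In YPD the subunit medians are -0.19, -0.17 and 0.00 in the wild type, 0.18, 0.22 and 0.05 in gal11∆ med3∆ and -0.02, -0.09 and 0.05 in gal11-myc med3∆.

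RPN4, the activator, is on chromosome IV. In YPD it read 0.09, 0.00 and -0.19 in the wild type, 0.31, 0.26 and 0.06 in gal11∆ med3∆ and -0.08, -0.05 and -0.21 in gal11-myc med3∆. The wild type and gal11∆ med3∆ values overlapped, at 0.09 and 0.06, and the third array was the lowest in each strain. The gal11∆ med3∆ difference was 0.25 ± 0.08 (1.19-fold, adjusted p = 0.0137), and between same-numbered arrays it was 0.23, 0.26 and 0.25. The call was lost without the third wild type array (0.17, adjusted p = 0.0711) or the first mutant array (0.20, adjusted p = 0.0730) and with only the arrays of these 2 groups in the fit (adjusted p = 0.116), and kept with chromosomes centred (0.25, adjusted p = 0.0127).

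In gal11-myc med3∆ in YPD, RPN4 differed from the wild type by -0.08 ± 0.08 (adjusted p = 0.454), and directly from gal11∆ med3∆ by -0.33 ± 0.08 (adjusted p = 0.00673). In CSM it read -0.15, -0.05 and 0.00 in the wild type, -0.01, 0.02 and -0.09 in gal11∆ med3∆ and 0.14, 0.14 and 0.09 in gal11-myc med3∆. All gal11-myc med3∆ arrays were above all others, yet the difference from the wild type, 0.19 ± 0.08, did not pass (adjusted p = 0.0628); with the array number as a block it did (adjusted p = 0.0352). The gal11∆ med3∆ difference in CSM was 0.04 ± 0.08 (adjusted p = 0.729). Neither mutant's RPN4 difference was shown to depend on the medium, at -0.21 ± 0.11 (adjusted p = 0.150) and 0.27 ± 0.11 (adjusted p = 0.117), although the first passed without the third gal11∆ med3∆ YPD array (-0.29, adjusted p = 0.0462) and the second without the third wild type YPD array (0.35, adjusted p = 0.0238).

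Dedicated chaperones help to build the proteasome, and some are themselves targets of Rpn4. In gal11∆ med3∆ in YPD 4 of 9 assembly chaperone genes were higher and 0 lower, where 27.5% of all genes were higher and 19.4% lower. NAS2, NAS6 and RPN14, which guide the ATPases into the base, were among them. NAS2 read -0.53, -0.50 and -0.46 in the wild type and 0.24, 0.15 and 0.07 in the mutant, and differed by 0.65 ± 0.07 (adjusted p = 6.59e-07). NAS6 differed by 0.65 ± 0.11 (adjusted p = 0.000174) and RPN14 by 0.58 ± 0.09 (adjusted p = 7.81e-05). UMP1, the maturation factor of the core, was the remaining one, at 0.36 ± 0.09 (adjusted p = 0.00337). None of the 9 is on chromosome V. In gal11-myc med3∆ in YPD, against the same wild type arrays, 3 of 9 were higher and 1 lower, with 21.2% of all genes higher and 12.1% lower. NAS2 differed by 0.50, NAS6 by 0.52 and RPN14 by 0.50, and POC4, a chaperone of the alpha ring, by -0.24 ± 0.07 (adjusted p = 0.0104). UMP1 (0.16, adjusted p = 0.198) and PBA1 (-0.25, adjusted p = 0.0773) did not pass.

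In CSM 2 of the 9 chaperone genes were higher in gal11∆ med3∆ (RPN14, 0.53 ± 0.09, and NAS2, 0.34 ± 0.07) and 3 were lower, against 27.1% and 18.4% of all genes. HSM3 (-0.83 ± 0.14, adjusted p = 0.000152) and UMP1 (-0.73 ± 0.09, adjusted p = 3.65e-06) are on chromosome II, and POC4, at -0.33 ± 0.07 (adjusted p = 0.000652), is not. UMP1 read 0.68, 0.70 and 0.71 in the wild type and 0.06, -0.10 and -0.05 in the mutant, and chromosome II as a whole had medians of 0.61, 0.61 and 0.65 on those wild type arrays. In gal11-myc med3∆ in CSM 1 was higher and 4 lower, against 22.4% and 14.2% of all genes, with UMP1 at -0.74, HSM3 at -0.74 and POC4 at -0.49. PRE7, a beta subunit gene on chromosome II that is not among the 31, was likewise lower in CSM, at -0.40 ± 0.09 (adjusted p = 0.00143) and -0.50 ± 0.09 (adjusted p = 0.000224) in the 2 mutants, where the chromosome as a whole shifted.

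Genes that make ubiquitin chains or deliver substrates to the proteasome were also counted. In gal11∆ med3∆ in YPD 14 of 24 were higher and 0 lower, made up of 4 of 4 on chromosome V, 3 of 3 on chromosome II and 7 of 17 elsewhere. Of all genes 27.5% were higher, with 83.8% of those on chromosome V, 25.6% of those on chromosome II and 24.6% of those elsewhere. DDI1, a ubiquitin-binding delivery factor on chromosome V, read -0.14, -0.07 and -0.10 in the wild type and 1.55, 1.64 and 1.34 in the mutant, a difference of 1.62 ± 0.08 (adjusted p = 1.50e-10) that remained 0.89 (adjusted p = 5.63e-07) with chromosomes centred. UBC6, a ubiquitin-conjugating enzyme of the endoplasmic reticulum on the same chromosome, differed by 1.06 ± 0.06, and by 0.34 (adjusted p = 0.00277) when centred. UBI4, the polyubiquitin gene, read -0.64, -0.94 and -0.59 against 0.36, 0.34 and 0.27, a difference of 1.05 ± 0.15 (adjusted p = 3.04e-05), and lies on another chromosome. These 3 were at or above the 2-fold mark, which no subunit reached.

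In gal11-myc med3∆ in YPD 5 of these 24 were higher and 0 lower, a share of higher genes near the 21.2% of all genes. They included UBI4 at 0.78 ± 0.15, UBX2 at 0.56 ± 0.10 and UBC5 at 0.53 ± 0.07, while DDI1 differed by 0.16 (adjusted p = 0.164) and UBC6 by 0.06 (adjusted p = 0.489). In CSM 3 were higher and 4 lower in each mutant, against 27.1% and 18.4% of all genes for gal11∆ med3∆ and 22.4% and 14.2% for gal11-myc med3∆. The lower genes were 3 of 3 on chromosome II and 1 of 17 outside chromosomes V and II in each mutant. Of all chromosome II genes, 78.3% were lower in gal11∆ med3∆ and 81.7% in gal11-myc med3∆. The largest falls were NPL4 (-1.08 ± 0.08 in gal11∆ med3∆ and -0.90 ± 0.08 in gal11-myc med3∆) and SHP1 (-0.84 ± 0.08 and -0.71 ± 0.08), both cofactors of the Cdc48 segregase and both on chromosome II. UBC5, which encodes a conjugating enzyme of short-lived proteins, rose by 0.69 ± 0.07 and 0.34 ± 0.07.

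Of 7 proteasome-associated genes and further subunits, SPG5, a proteasome regulator of stationary phase, had the widest differences in CSM. It read -1.10, -1.27 and -1.22 in the wild type in CSM, 0.09, 0.01 and 0.07 in gal11∆ med3∆ and -0.01, 0.00 and 0.00 in gal11-myc med3∆. Both mutants were well above the wild type, by 1.25 ± 0.12 (adjusted p = 2.13e-07) and 1.20 ± 0.12 (adjusted p = 6.13e-07). In YPD it differed by 0.45 ± 0.12 (adjusted p = 0.00601) and 0.56 ± 0.12 (adjusted p = 0.00185), with the third wild type array at -0.86 and the others at -0.20 and -0.22. In gal11∆ med3∆ in YPD 2 of the 7 were higher, a share near the 27.5% of all genes, the other being UBP6, the proteasome-bound deubiquitinase, at 0.34 ± 0.10 (adjusted p = 0.00888). ECM29 (0.48 ± 0.32, adjusted p = 0.232) and BLM10 (-0.35 ± 0.17, adjusted p = 0.0961), both proteasome-binding proteins, did not pass. The subunit genes PRE7 and SEM1 did not pass there either.

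Of 6 genes for regulators of RPN4, 0 were higher in gal11∆ med3∆ in YPD and 1 was lower, against 27.5% and 19.4% of all genes. MUB1, whose product works with the ubiquitin ligase Ubr2 on Rpn4, differed by -0.55 ± 0.16 (adjusted p = 0.00881) there, by -0.51 ± 0.16 (adjusted p = 0.0189) in gal11-myc med3∆ in YPD, and by -0.57 ± 0.16 (adjusted p = 0.00666) and -0.46 ± 0.16 (adjusted p = 0.0296) in CSM, each pair against shared wild type arrays. The wild type YPD values of MUB1 were 0.11, 0.21 and 0.76, so the third array stood above the others. UBR2 itself differed by 0.12 ± 0.25 (adjusted p = 0.722) in gal11∆ med3∆ in YPD. PDR3, a drug-resistance activator that also acts on RPN4, was lower in CSM by -0.75 ± 0.14 (adjusted p = 0.000365) and -1.05 ± 0.14 (adjusted p = 1.70e-05), and lies on chromosome II. HSF1, PDR1 and YAP1, further activators of RPN4, passed in neither medium for gal11∆ med3∆, with differences between -0.23 and 0.21.

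The authors' deposited table of fold changes gave fewer calls in YPD than the model above. In it 8 of 31 subunits had a corrected p under 0.05 for gal11∆ med3∆ in YPD, all 8 of them higher, where 22% of probe sets with a gene passed. PUP3 had a fold of 1.84 and PRE1 of 1.73 in the authors' deposited table, and RPN4 a fold of 1.17 (corrected p = 0.275). For gal11-myc med3∆ in YPD 1 subunit passed in the authors' deposited table, against 8.35% of probe sets. In CSM 10 passed for that strain, 8 of them higher, and 6 for gal11∆ med3∆, 4 of them higher, against 51% and 30.2%. The model above called 3 and 7 subunits in CSM for these strains, so for gal11-myc med3∆ the authors' deposited table gave more calls there.

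The same table holds the only comparison with BY4742. Its values are BY4742 relative to BY4741, since LYS2 was lower and MET17 higher in it. By the authors' deposited table, none (0) of 31 subunits had a corrected p under 0.05 between these strains, 0 had an uncorrected p under 0.05, and 0.311% of probe sets passed. The subunit log2 folds in the authors' deposited table had a median of -0.07 and RPN4 a signed fold of -1.10. The first BY4742 array, on which all 31 subunits and 59.3% of all genes were the highest of the group, enters that comparison. Its subunit median was 0.23 against -0.01 and 0.00 on the other arrays of the group.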

How the data were processed

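The deposited array values are on a log2 scale. Per the submitters' processing notes the authors summarised the arrays with RMA, and the values themselves show that each probe set was then centred on its median within 3 sets of arrays. The authors' deposited table gives p-values and, as scores, signed linear fold changes (a fall is the negative inverse of the ratio) for 5 comparisons, made in GeneSpring 11.5.1 per the file headers. The arrays' number, 3 a group, limits the precision.

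Of 10928 probe sets, 5498 matched a gene of this species in the annotation table, and probe sets of the same gene (47 genes) were averaged, which left 5449 genes. Group means of all 21 arrays were fitted with limma 3.58.1 in R 4.3.3 (lmFit and eBayes, 14 residual degrees of freedom), and 8 differences were tested with Benjamini-Hochberg adjustment over all genes at 0.05. The fit was tested on simulated data. The labels do not say that an array number marks a shared day or batch. Deviations of same-numbered YPD arrays of the wild type and mutants from their group means correlated at 0.15 to 0.61 over genes. For the CSM arrays the range was -0.22 to 0.22. A block on the number was therefore fitted as an alternative only, and whether the numbers mark a pairing was not tested. Other alternatives were arrays or groups left out, array weights, array and chromosome centring, probe sets fitted alone, a robust prior and a 2-fold minimum. The members and gene lists were chosen with earlier results of these data known. Named in each comparison are RPN4, the members with the largest differences, those that passed against the majority, those of a subunit group that did not pass, and up to 3 genes of each other list, with a few added after their values were seen. Promoter and protein sequences were not used here.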

Additional observations from a re-analysis of the deposited data

Results flagged for a closer look

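For 14 proteasome subunits a direct test found that the effect of gal11∆ med3∆ differed between CSM and YPD, as the difference in CSM minus the difference in YPD on the log2 scale. On chromosome V these were RPN3 (-0.74 ± 0.13, SE), PRE1 (-0.65 ± 0.13) and PUP3 (-0.58 ± 0.09). Elsewhere in the core they were PRE4 (-0.48 ± 0.13), PRE8 (-0.47 ± 0.11), PRE3 (-0.43 ± 0.11) and PRE10 (-0.34 ± 0.11). In the regulatory particle they were RPN6 (-0.62 ± 0.22), RPT2 (-0.55 ± 0.19), RPN9 (-0.44 ± 0.14), RPN12 (-0.44 ± 0.14), RPN10 (-0.41 ± 0.11), RPT3 (-0.37 ± 0.09) and RPN7 (-0.31 ± 0.10). Each had an adjusted p under 0.05 by limma over all genes with 3 arrays a group. All 14 were less positive in CSM. The chromosome V genes as a whole had a median of -0.65 in this test, and the part of the media, as against the cultures and the arrays grown and run for each, cannot be told apart with 1 set of arrays per medium. For gal11-myc med3∆ the same test called 0 of 31 subunits.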

How the results depend on the processing

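The 23 higher subunits in gal11∆ med3∆ in YPD became 14 with only the 2 groups of the comparison in the fit and 0 at 2-fold, and from 16 to 27 with 1 array left out. RPN4 there, 0.25, missed the threshold with only those groups (adjusted p = 0.116) and at 2-fold, and ran from 0.17 to 0.32 with 1 array left out. A 2-fold minimum left 0 calls among subunits in every comparison. The alternative fits covered all genes, so the calls of other genes can move with them too. For most of these settings the share of all genes called is not given, so a count alone shows nothing particular to the subunits.

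With the array number as a block, the counts were 23 and 0 for gal11∆ med3∆ in YPD, and in CSM 4 higher and 1 lower; PRE9 (adjusted p = 0.0512) and PRE4 (0.0533) lost their calls there, RPN7 in gal11-myc med3∆ in YPD did too, RPN4 at 0.19 in gal11-myc med3∆ in CSM passed, and the block changed no other member's call. The cause of these changes was not tested.

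For gal11∆ med3∆ in CSM, lower counts were 1 with only those groups, 1 without BY4742, 0 with probe sets fitted alone and 6 with array weights, and higher counts 3 with arrays centred on their medians, 9 with weights and 2 with chromosomes centred. With 1 array left out they ran from 0 to 1 and from 3 to 5, and RPN4 from -0.01 to 0.07. For gal11-myc med3∆ in YPD, higher counts were 2 with only those groups, 14 with weights and 8 without the first BY4742 and gal11∆ med3∆ CSM arrays (2 to 8 with 1 array left out), and lower counts 1 with weights and 1 with chromosomes centred (0 to 1); RPN4 ran from -0.16 to -0.02. In CSM, higher counts were 7, 9, 1 (outside chromosomes V and II) and 4 (without both first arrays), and 1 to 2 with 1 array left out, and lower counts 2 and 2 with only those groups or weights, and 1 throughout with 1 array left out. RPN4 there, 0.19, passed with only those groups (0.00925), with weights (0.000230) and without the third YPD arrays (0.00960), and ran from 0.15 to 0.22.

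Of the differences between media, the 14 for gal11∆ med3∆ became 27 with weights and 23 without the third YPD arrays (8 to 19 with 1 array left out), and those for gal11-myc med3∆ 2 lower with weights and 0 in every fit without 1 array. RPN4 passed at -0.21 for the former with weights (0.0166), and at 0.32 with weights (0.00149) and 0.30 without the third YPD arrays (0.0228) for the latter; with 1 array left out these ran from -0.29 to -0.13 and from 0.21 to 0.35. With chromosomes centred PUP3 turned to 0.030 there, and PUP3 to 0.22 and RPN3 to 0.024 between the mutants in YPD, since the chromosome V shift is then removed.

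Between the mutants in YPD the 5 lower subunits became 3 with only those groups, 8 without BY4742, 29 with weights, 11 without the first BY4742 array, 11 without the first gal11∆ med3∆ CSM array, 16 without both, 16 without the third YPD arrays, 2 with chromosomes centred (and 1 higher) and 2 outside chromosomes V and II, and 4 to 12 with 1 array left out. RPN4, -0.33, missed with only those groups (0.0804) and at 2-fold, and ran from -0.40 to -0.28. In CSM higher counts were 7 with weights and 1 without both first arrays (0 to 1 with 1 array left out), and lower counts 4 with weights and 1 without the third YPD arrays (0 with 1 array left out), and RPN4 passed at 0.16 with weights (0.00580) and 0.15 without the third YPD arrays (0.0470), running from 0.12 to 0.17. The alternatives that centre chromosomes, drop the outlying arrays or count members outside chromosomes V and II were chosen after seeing the data. Over 4991 values of single subunits, 4585 kept their side of the threshold, 183 lost a call, 220 gained one and 3 reversed. The sign of the difference turned in 184 of the 4991, also among values that kept their side.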

Other observations

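Several further pathway genes had values worth a second reading. DDI1 on chromosome V had a difference in gal11∆ med3∆ in YPD of 1.62, above its chromosome's upper quartile of 1.15. RAD23 and RSP5, for a delivery factor and a ubiquitin ligase on the same chromosome, differed by 0.72 ± 0.10 (adjusted p = 1.16e-05) and 0.71 ± 0.17 (adjusted p = 0.00227) there, and DSK2, a delivery factor on another chromosome, by 0.73 ± 0.09 (adjusted p = 9.23e-06). UBX2, a membrane factor that recruits Cdc48, differed by 0.62 ± 0.10 (adjusted p = 0.000128).

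The authors' deposited table shows the chromosome shifts as well: its log2 folds had a median of 0.80 on chromosome V for gal11∆ med3∆ in YPD and of -0.72 on chromosome II for both mutants in CSM. Between BY4742 and BY4741 its medians were -0.02 on chromosome V and -0.02 on chromosome II.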
